A study of Mus musculus with 8 samples.

Results

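The gene Trp53, which encodes the transcription factor p53, and 35 genes known as its targets were followed in intestinal adenomas with and without 14-3-3σ, a protein that p53 induces in human cells and whose gene, Sfn, was left out of the set. Members were chosen by name, and all 36 were found among the 48413 gene rows of the deposited sheet and all 36 passed the filter on low values, under which 17523 genes were tested. The adenomas came from the small intestine of C57BL/6 background mice that were ApcMin/+, heterozygous for a mutation that truncates Apc, a brake on Wnt signalling. One group of 4 mice was ApcMin/+ with Sfn intact, aged 256 to 282 days. The other group of 4 mice was ApcMin/+/14-3-3σ-/-, called the knockout, aged 144 to 148 days per the labels. Age and genotype therefore cannot be told apart in any comparison between the groups. The labels do not say whether an adenoma library was made from 1 polyp or from several, or how the Sfn allele was made.

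p53 is kept low in unstressed cells because Mdm2, an E3 ubiquitin ligase that p53 itself induces, marks it for degradation, and Mdm4 binds and silences it. DNA damage, oncogene activity or ribosomal stress frees p53, which then binds pairs of a decamer motif near its targets. The targets halt the cell cycle (Cdkn1a, encoding p21), start apoptosis (Bax, Bbc3), repair DNA (Xpc, Ddb2) and restrain growth and oxidative stress (the sestrins). In the mouse intestine, p53 and p21 are best known for the response of crypt cells to radiation. 14-3-3σ binds phosphorylated proteins, and in human colorectal cancer cells it holds Cdk1 and cyclin B1 in the cytoplasm after damage. Regulation of p53 is largely at the level of the protein, which these data do not measure.

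Values are normalised read counts after RUVs, a method that estimates unwanted variation among replicates and subtracts it. The subtraction removed 1 of the 6 directions in which replicates could differ, the contrast of ApcMin/+ replicates 1 and 2 with replicates 3 and 4, which came from separate sequencing orders. Those 4 libraries therefore hold fewer independent deviations than their number implies, and the removed direction was entered in the model. By the labels and column names, all knockout libraries came from the sequencing order of ApcMin/+ replicates 1 and 2, called the shared order. ApcMin/+ replicates 3 and 4 alone came from the other order, so order was unequally shared between the genotypes. Sfn stood at 14607, 6585, 6989 and 15968 in ApcMin/+ replicates 1 to 4 and at 0 or 1 in the knockout libraries (two-sided exact permutation p = 0.0286, the smallest p that 4 against 4 libraries allow). One knockout column bears the number of an ApcMin/+ mouse, was placed in its group by the genotype in its name and is called the unnumbered knockout library. Xist, transcribed from an inactive X chromosome, lay between 12334 and 34488 in ApcMin/+ replicates 2 and 3 and in the unnumbered knockout library, and at 18 or below in the other 5. These high-Xist and low-Xist libraries are named where they matter. Ddx3y, a gene of the Y chromosome, was at 0 to 2 in the high-Xist libraries and at 1435 to 2132 in the low-Xist ones. By these genes the high-Xist libraries came from females and the low-Xist ones from males, so the sexes were unequally shared between the genotypes. Library sums of the normalised values ran from 34182800 to 46707800, and the depth before normalisation is unknown.

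Most of the 36 genes lay lower in the knockout adenomas, by small amounts, and no single gene passed the test. The log2 fold change, knockout minus ApcMin/+ on the log2(value + 1) scale, was below 0 for 28 of the 36 (77.8%), against 59% of all genes tested. The median of the 36 was -0.23, and that of all genes tested was -0.07. In limma, 0 of the 36 passed at an adjusted p under 0.05, where 0.143% of all genes were lower and 0.188% higher (25 and 33 genes). That split was 18 and 38 under median-ratio scaling and 20 and 40 under quantile normalisation. At an unadjusted p under 0.05, 12 of the 36 were lower (33.3%, against 11.6% of all genes) and Trp53inp1 alone was higher (2.78%, against 7.39%). For 11 of the 36 every knockout library lay below every ApcMin/+ library (30.6%, against 10.6%), and for 0 of the 36 every knockout library lay above (against 5.5%).

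Roles differed in where the low values sat. Arrest genes had a median log2 fold change of -0.32 with 7 of 8 below 0, and metabolism and stress genes -0.29 with 7 of 8 below 0. Apoptosis genes had a median of -0.18 with 8 of 12 below 0 and the widest range, -0.68 to 0.53. The 4 genes that control p53, Trp53 included, had a median of -0.10, and the 4 repair genes 0.01 with 2 on each side of 0. Differences between the roles were not tested.

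**Figure D1:**
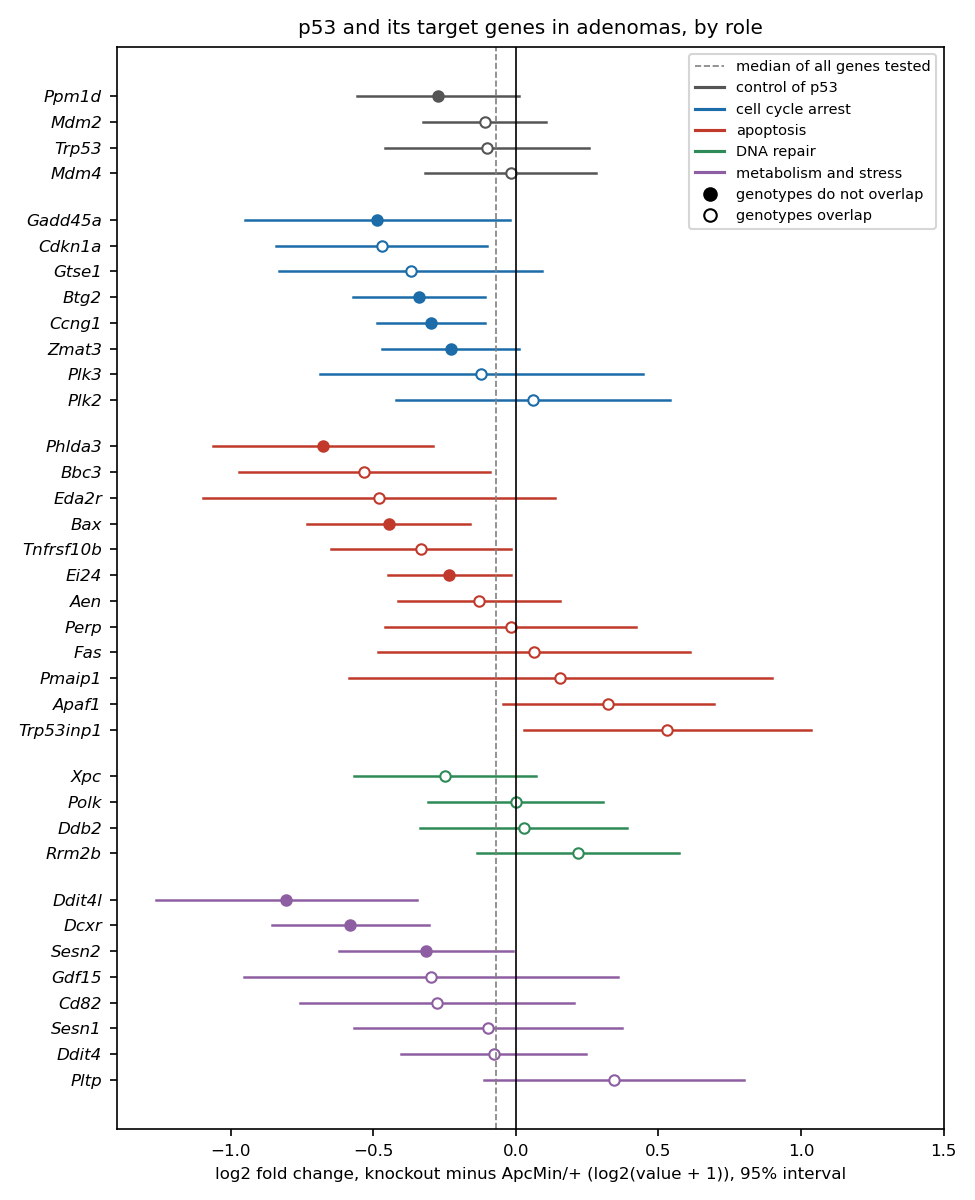
Each point is a member's log2 fold change, knockout minus ApcMin/+, with its 95% interval from limma (4 libraries a genotype), grouped by role; filled points mark members whose genotypes do not overlap. Most points lie left of 0 and of the dashed median of all genes tested (-0.07), the repair genes sit around 0, and Trp53inp1 (0.53) lies farthest to the right.

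Among the controllers of p53, Trp53 itself had overlapping values, with a wider spread in ApcMin/+. Trp53 (chromosome 11, 69580359 to 69591873, GRCm38) had normalised read counts of 3149, 5241, 3869 and 4562 in ApcMin/+ replicates 1 to 4. In the knockout it had 3720 in the unnumbered library and 3936, 3756 and 4007 in replicates 2 to 4. All 4 knockout values fell inside the ApcMin/+ range. The means were 4205 ± 900 and 3855 ± 139 (SD, n = 4 each; log2 fold change -0.10, 95% interval -0.46 to 0.26, limma adjusted p = 0.758). On the log2 scale the SD of Trp53 was 0.32 in ApcMin/+ and 0.05 in the knockout.

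Mdm2 (chromosome 10, 117688875 to 117710758), both inhibitor and target of p53, had 2341, 2316, 2187 and 2523 in ApcMin/+ replicates 1 to 4. Its knockout values were 2326, 2024, 2150 and 2185, in the order unnumbered and replicates 2 to 4, which is kept for the knockout from here on. The genotypes overlapped, and the log2 fold change was -0.11 (95% interval -0.32 to 0.11, limma adjusted p = 0.555). Mdm4 had a log2 fold change of -0.02 (95% interval -0.32 to 0.28), and its sign turned under median-ratio scaling and quantile normalisation (0.043 and 0.042). Ppm1d, the Wip1 phosphatase that switches the p53 response off, had 600, 591, 566 and 647 in ApcMin/+ and 441, 474, 522 and 558 in the knockout. Its genotypes did not overlap, although ApcMin/+ replicate 3 and knockout replicate 4 were close (566 and 558; log2 fold change -0.27, limma adjusted p = 0.278).

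The arrest genes were mostly lower in the knockout adenomas, Cdkn1a, Ccng1, Btg2 and Gadd45a among them. Cdkn1a (chromosome 17, 29090976 to 29100727) encodes p21, the inhibitor of cyclin-dependent kinases through which p53 stops the cell cycle. It had 7580, 5328, 5711 and 7311 in ApcMin/+ replicates 1 to 4. The knockout libraries had 4221, 3994, 4859 and 5575. Knockout replicate 4 lay above ApcMin/+ replicate 2, so the genotypes overlapped, and the low-Xist ApcMin/+ replicates 1 and 4 were the highest of all. The means were 6483 ± 1128 and 4662 ± 710 (SD, n = 4 each; log2 fold change -0.47, 95% interval -0.84 to -0.10, limma adjusted p = 0.187). Cdkn1a was at -0.64 in the 5 low-Xist libraries alone, where it passed (limma adjusted p = 0.0375). With those 5 libraries alone, 3 of the 36 members were lower and 2 higher past the threshold (8.33% and 5.56%), against 8.45% and 4.07% of all genes, so the members' shares lay near the background.

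Ccng1 (chromosome 11, 40748552 to 40755311) encodes cyclin G1, a target that feeds back on p53 through Mdm2. It was the steadiest member within each genotype, with 3984, 4148, 4026 and 4128 in ApcMin/+ and 3401, 3325, 3272 and 3251 in the knockout. The groups were apart by a gap of 3401 to 3984, wider than the range within either group. Its log2 fold change was small, -0.30 (95% interval -0.49 to -0.11, limma adjusted p = 0.138), and lay between -0.31 and -0.23 under the 20 alternatives tried. Btg2, an antiproliferative partner of mRNA deadenylases, had 5001, 4837, 4739 and 5134 in ApcMin/+ and 3674, 3513, 4152 and 4264 in the knockout, without overlap (log2 fold change -0.34, 95% interval -0.57 to -0.11, limma adjusted p = 0.153).

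Gadd45a, a stress protein of arrest and repair, had 1365, 804, 847 and 1415 in ApcMin/+ and 751, 752, 757 and 797 in the knockout. The ApcMin/+ values fell in pairs, with the high-Xist replicates 2 and 3 just above the knockout values and the low-Xist replicates 1 and 4 far above them. The log2 fold change was -0.49 over all libraries (limma adjusted p = 0.250) and -0.85 in the low-Xist libraries alone, where it passed (limma adjusted p = 0.0109). In those libraries 8.45% of all genes were lower past the threshold. A noncoding transcript on the opposite strand, E230016M11Rik, covers 19.1% of the exon bases of Gadd45a, and whether counting used the strand is not given in the sources used here. Zmat3, an RNA-binding zinc finger protein, had 1229, 1342, 1269 and 1364 in ApcMin/+ and 1044, 1165, 1018 and 1224 in the knockout. Its genotypes did not overlap but were nearly touching (1224 and 1229; log2 fold change -0.23, limma adjusted p = 0.282).

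The other 3 arrest genes overlapped between the genotypes. Gtse1, a microtubule-associated protein of G2 phase that restrains p53 in human cells, had a log2 fold change of -0.37 (95% interval -0.83 to 0.09). The polo-like kinase genes Plk3 and Plk2 had -0.12 (-0.69 to 0.44) and 0.06 (-0.42 to 0.54). Plk2 changed sign in 3 of 20 alternatives and Plk3 in 1. Plk2 had 1302, 2526, 2141 and 1453 in ApcMin/+ replicates 1 to 4 and 1732 to 1992 in the knockout. It passed in the low-Xist libraries with 0.47 (limma adjusted p = 0.0430), where 4.07% of all genes were higher past the threshold. Those libraries include only the ApcMin/+ replicates in which Plk2 was low.

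The promoters of these members show how unevenly the p53 motif is placed near a start site. RefSeq windows on GRCm38.p6, from 250 bases before to 50 bases after an annotated start, existed for 28 of the 36 members, in 40 windows. The p53 consensus decamer, searched without mismatch and identical on both strands, lay in 14 of the 40 windows (35%), against 8.36% of all 32851 windows. Windows of 1 gene can overlap, and the windows of Aen hold the same decamer. Counted by member, 13 of the 28 had a decamer. A pair of exact decamers with a gap of at most 13 bases was counted as the form p53 binds as a tetramer. It lay in 1 member window, at the upstream start of Cdkn1a, and in 0.0731% of all windows. The members were picked as p53 targets, so this share is a description of the set. Windows of 4 members are shown 5′ to 3′ on the strand of the gene, with exact decamers in capitals. They are Cdkn1a, which holds the pair, Ccng1 and Bax, which each hold 1 decamer and did not overlap between the genotypes, and Mdm2, which holds 1 and overlapped. The first is chr17:29090729-29091028 (plus strand), and the others are chr11:40755237-40755536, chr7:45466849-45467148 and chr10:117710709-117711008 (minus strand).
Cdkn1a: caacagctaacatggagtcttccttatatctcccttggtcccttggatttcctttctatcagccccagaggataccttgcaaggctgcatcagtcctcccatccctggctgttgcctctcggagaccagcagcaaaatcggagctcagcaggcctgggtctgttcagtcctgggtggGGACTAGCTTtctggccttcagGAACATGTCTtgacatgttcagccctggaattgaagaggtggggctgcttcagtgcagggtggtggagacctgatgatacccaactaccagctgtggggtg
Ccng1: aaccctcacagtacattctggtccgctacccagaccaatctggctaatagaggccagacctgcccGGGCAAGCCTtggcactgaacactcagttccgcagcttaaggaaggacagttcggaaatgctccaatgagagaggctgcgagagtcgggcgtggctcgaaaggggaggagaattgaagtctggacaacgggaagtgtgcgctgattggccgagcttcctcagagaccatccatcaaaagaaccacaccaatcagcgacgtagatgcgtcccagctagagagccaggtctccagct
Bax: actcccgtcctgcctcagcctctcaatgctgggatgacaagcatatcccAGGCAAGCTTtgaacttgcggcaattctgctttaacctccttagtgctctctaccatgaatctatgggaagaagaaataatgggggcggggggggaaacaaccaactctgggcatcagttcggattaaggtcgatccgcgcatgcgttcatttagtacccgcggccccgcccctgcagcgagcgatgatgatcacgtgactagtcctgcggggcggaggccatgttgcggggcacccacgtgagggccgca
Mdm2: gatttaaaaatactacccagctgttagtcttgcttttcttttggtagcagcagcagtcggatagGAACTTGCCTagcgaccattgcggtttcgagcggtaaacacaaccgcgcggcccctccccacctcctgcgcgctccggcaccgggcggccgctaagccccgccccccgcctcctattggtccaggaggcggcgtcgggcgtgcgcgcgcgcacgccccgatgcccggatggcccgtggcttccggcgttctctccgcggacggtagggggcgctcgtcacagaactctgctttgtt
Of the 3 members with the lowest fold changes, Ddit4l held 1 exact decamer in its window and Phlda3 and Dcxr held 0. A known p53 element can lie outside such a window, so the letters say nothing of binding there. Near matches were left unmarked. In the Cdkn1a window tgacatgttc directly follows the second decamer and misses the consensus at 1 base, so the marked pair need not be the site that p53 uses.

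The apoptosis genes were spread more widely around 0 than any other role. Bax (chromosome 7, 45461697 to 45466898), which perforates the outer mitochondrial membrane, had 2918, 3351, 2978 and 3578 in ApcMin/+ and 2071, 2738, 2165 and 2461 in the knockout. The genotypes did not overlap, and the means were 3206 ± 313 and 2359 ± 303 (SD, n = 4 each; log2 fold change -0.45, 95% interval -0.73 to -0.16, limma adjusted p = 0.138). The coding gene model Gm45808 covers 12.2% of the exon bases of Bax on the same strand. Bbc3, encoding Puma, which releases Bax from its inhibitors, had 220, 342, 285 and 283 in ApcMin/+ and 178, 231, 165 and 204 in the knockout. Only ApcMin/+ replicate 1 and knockout replicate 2 were out of order (220 and 231; log2 fold change -0.53, 95% interval -0.97 to -0.09, limma adjusted p = 0.207).

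Phlda3 (chromosome 1, 135766119 to 135769136), which encodes an inhibitor of the survival kinase Akt, had the largest difference of this role. It had 1135, 1774, 1530 and 1341 in ApcMin/+ and 1009, 984, 730 and 873 in the knockout. The genotypes did not overlap, and the means were 1445 ± 272 and 899 ± 127 (SD, n = 4 each; log2 fold change -0.68, 95% interval -1.06 to -0.29, limma adjusted p = 0.126). Ei24, an endoplasmic reticulum protein tied to apoptosis and autophagy, had 4725, 4143, 4192 and 4780 in ApcMin/+ and 3882, 3732, 3678 and 3851 in the knockout. All 4 knockout values lay lower, with a log2 fold change of -0.23 (95% interval -0.45 to -0.02, limma adjusted p = 0.238). Tnfrsf10b, the mouse TRAIL receptor, had 607, 800, 646 and 780 in ApcMin/+ and 628, 513, 540 and 557 in the knockout, with the unnumbered library inside the ApcMin/+ range (log2 fold change -0.33, limma adjusted p = 0.248).

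Trp53inp1, a stress-induced nuclear protein that promotes p53 activity and autophagy, was the 1 member that was higher at an unadjusted p under 0.05, among 4 apoptosis genes above 0. It had 1561, 2888, 2594 and 1557 in ApcMin/+ and 2948, 2812, 3434 and 2790 in the knockout. The 2 low-Xist ApcMin/+ libraries stood far below the other 6, and the high-Xist ApcMin/+ replicate 2 lay among the knockout libraries. The log2 fold change was 0.53 (95% interval 0.03 to 1.03, limma adjusted p = 0.248), and 0.94 in the low-Xist libraries alone, where it passed (limma adjusted p = 0.0106). In those libraries 4.07% of all genes were higher past the threshold. Apaf1, the scaffold of the apoptosome, also had a positive value, 0.32 (95% interval -0.04 to 0.69). Pmaip1, encoding the BH3-only protein Noxa, varied more than any other member, from 807 to 2013 in ApcMin/+ and from 1008 to 2023 in the knockout (log2 fold change 0.16, 95% interval -0.59 to 0.90).

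The remaining 4 apoptosis genes overlapped between genotypes. Eda2r, a death-domain-free TNF receptor for ectodysplasin, was near the low end of the set with 94 to 154 in ApcMin/+ and 66 to 128 in the knockout (log2 fold change -0.48, 95% interval -1.10 to 0.14). Fas, the death receptor, had 0.06 (-0.48 to 0.61), with ApcMin/+ values of 396 and 460 in the low-Xist replicates 1 and 4 and 248 and 238 in replicates 2 and 3. The exonuclease gene Aen had -0.13 (-0.41 to 0.16). Perp, a desmosomal membrane protein and apoptosis effector, had -0.02 (-0.46 to 0.42), which turned to 0.043 under median-ratio scaling and 0.062 under quantile normalisation.

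**Figure D2:**
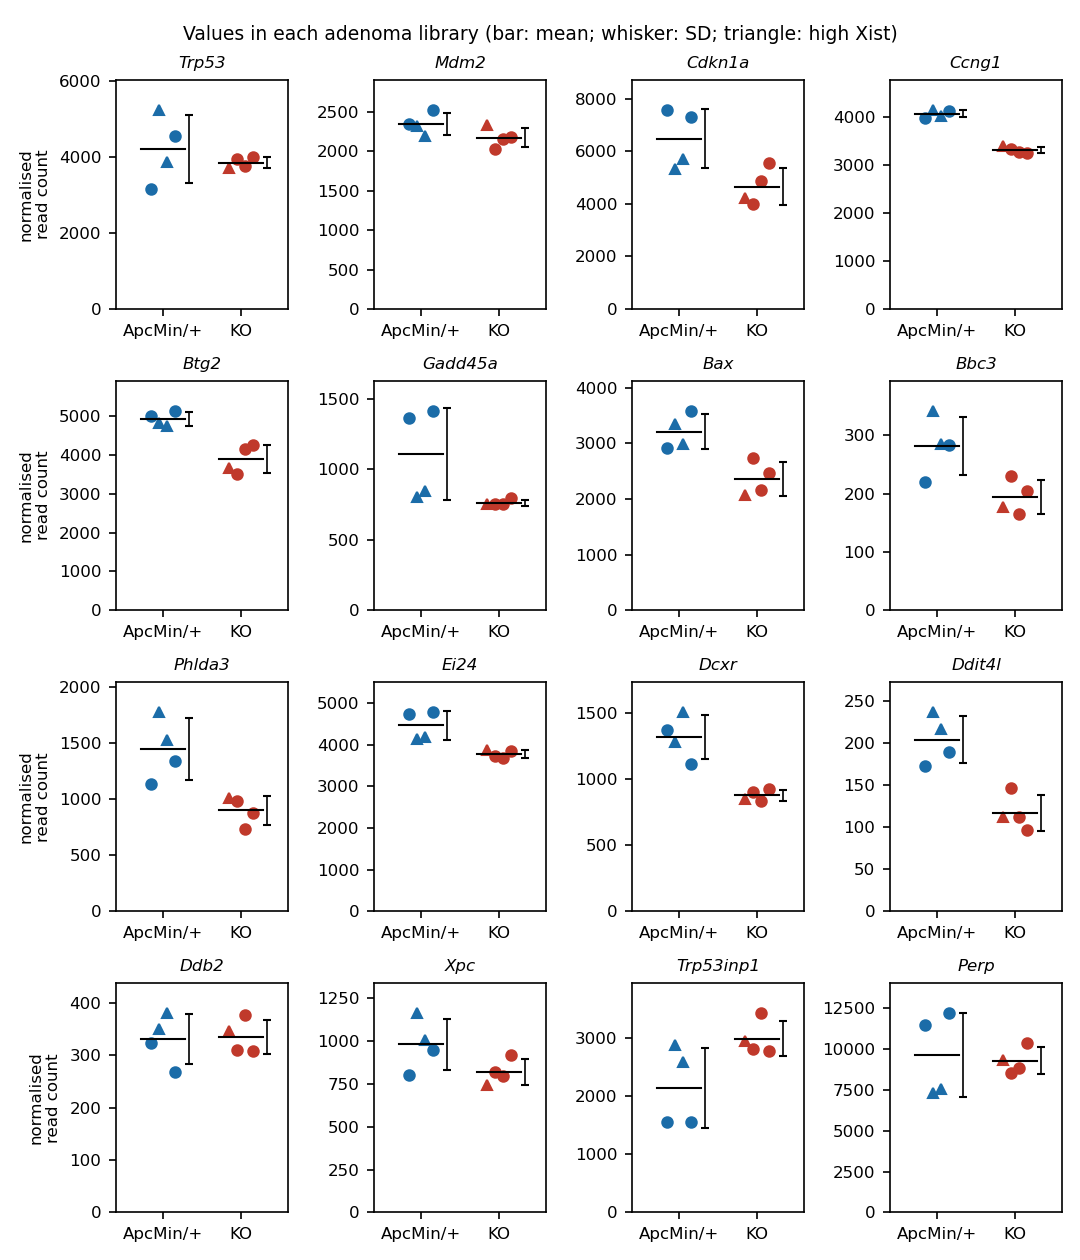
Normalised read counts of 16 members in each of the 8 libraries, ApcMin/+ in blue and knockout (KO) in red, with the mean (bar), SD (whisker) and the high-Xist libraries as triangles. Ccng1, Btg2, Bax, Phlda3, Ei24, Dcxr and Ddit4l separate the genotypes, while Trp53, Mdm2, Ddb2, Xpc and Perp overlap.

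The 4 repair genes overlapped between the genotypes, and none had an unadjusted p under 0.05. Of all genes tested, 10.6% were lower and 5.5% higher without overlap. At that unadjusted p 11.6% were lower and 7.39% higher, so with 4 genes these counts say little about the role. Xpc, which recognises damage in global genome nucleotide excision repair, had a range of 804 to 1163 in ApcMin/+ and 744 to 920 in the knockout (log2 fold change -0.25, 95% interval -0.57 to 0.07, limma adjusted p = 0.365). Ddb2, the partner in ultraviolet damage recognition and a p53 target in human cells, had 268 to 380 and 308 to 376 (0.03, -0.34 to 0.39). The neighbouring gene Acp2, on the opposite strand, covers 23.8% of the exon bases of Ddb2. Polk, a translesion polymerase, had 420 to 551 and 440 to 515 (-0.00, -0.31 to 0.31), with a positive sign under median-ratio scaling (0.060) and quantile normalisation (0.021). Rrm2b, the ribonucleotide reductase subunit that supplies nucleotides for repair, had 362 to 488 and 447 to 573 (0.22, -0.14 to 0.57).

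Among metabolism and stress genes, Dcxr and Ddit4l had the smallest unadjusted p-values of all 36 members. Dcxr (chromosome 11, 120725399 to 120727281) encodes L-xylulose reductase, which detoxifies dicarbonyl sugars. It had 1375, 1282, 1508 and 1112 in ApcMin/+ and 852, 903, 832 and 923 in the knockout. The knockout values lay in a narrow band below all ApcMin/+ values, and the means were 1319 ± 166 and 878 ± 42.6 (SD, n = 4 each). The log2 fold change of -0.58 (95% interval -0.85 to -0.31) had an unadjusted p of 0.00109 and a limma adjusted p of 0.102. It passed without ApcMin/+ replicate 4 (-0.66, limma adjusted p = 0.0273), where 0.331% of all genes were lower and 0.491% higher, and when the removed direction was not counted (limma adjusted p = 0.0369), where 1.1% were lower and 1.33% higher. No other member passed in either.

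Ddit4l (chromosome 3, 137621612 to 137628333), which encodes the mTORC1 inhibitor Redd2, had 173, 237, 217 and 190 in ApcMin/+ and 112, 147, 112 and 97 in the knockout. It had the lowest fold change of the 36 without overlap, -0.80 (95% interval -1.26 to -0.35, limma adjusted p = 0.125). Its paralogue Ddit4, encoding Redd1, overlapped, with 5166 to 7493 in ApcMin/+ and 5353 to 6781 in the knockout (log2 fold change -0.08, 95% interval -0.40 to 0.25). The sestrins restrain mTORC1 and oxidative stress. Sesn2 had 603, 551, 554 and 627 in ApcMin/+ and 519, 481, 391 and 492 in the knockout, without overlap (log2 fold change -0.32, 95% interval -0.62 to -0.01, limma adjusted p = 0.252). Sesn2 starts 1.11 Mb from Sfn on chromosome 4 (132492032 to 132510501). At such a distance linkage to the altered Sfn allele and loss of 14-3-3σ cannot be told apart. Sesn1 had -0.10 (-0.57 to 0.37).

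The last 3 members of this role are secreted or membrane proteins with other main functions. Gdf15, a stress-induced hormone of the TGF-beta family, had 124 to 228 in ApcMin/+ and 108 to 208 in the knockout (log2 fold change -0.30, 95% interval -0.95 to 0.36). Cd82, a tetraspanin and a p53 target in human cells, had 8347 and 8123 in the low-Xist ApcMin/+ replicates 1 and 4, 4567 and 5018 in replicates 2 and 3, and 4834 to 5454 in the knockout. The knockout values lay within those of the high-Xist ApcMin/+ pair or slightly above. The log2 fold change over all libraries was -0.28 (95% interval -0.76 to 0.20, limma adjusted p = 0.497). It was -0.69 in the low-Xist libraries (limma adjusted p = 0.0155), where 8.45% of all genes were lower past the threshold. Those libraries include only the ApcMin/+ replicates in which Cd82 was high. Pltp, the phospholipid transfer protein and a p53 target in human cells, had 0.34 (-0.11 to 0.80), and the opposite-strand gene Ctsa covers 19.3% of its exon bases.

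Across libraries the members did not vary as a block. On the log2 scale the median SD of the 36 was 0.22 in ApcMin/+ and 0.14 in the knockout, and for all genes tested 0.25 and 0.19. The SD was larger in ApcMin/+ for 25 of the 36, and for 61.8% of all genes. Within ApcMin/+, many members set replicates 1 and 4 against replicates 2 and 3. RUVs had already removed the contrast of replicates 1 and 2 with replicates 3 and 4 from these values. The effect of that removal on the pattern was not tested. In 13 of the 36 both low-Xist libraries exceeded both high-Xist libraries (36.1%, against 36.4% of all genes), and in 11 the reverse held (30.6%, against 23.5%). Fas, Plk3, Cd82, Gadd45a, Pmaip1 and Perp were on the first side, with differences of 0.67 to 0.81 on the log2 scale, and Trp53inp1, Plk2, Gdf15 and Eda2r on the other, at -0.81, -0.76, -0.62 and -0.47. The 7 epithelial markers summed to 648882 and 705391 in ApcMin/+ replicates 1 and 4 and to 403096 and 408205 in replicates 2 and 3, with 408505 to 502563 in the knockout. Their part in the spread of these members was not tested. ApcMin/+ replicate 4 was the highest library for 13 of the 36 members (31.8% of all genes, so near the background) and ApcMin/+ replicate 2 for 12 of 36 (14.5% of all genes). Knockout replicate 3 was the lowest for 9 of 36 (18.3% of all genes).

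**Figure D3:**
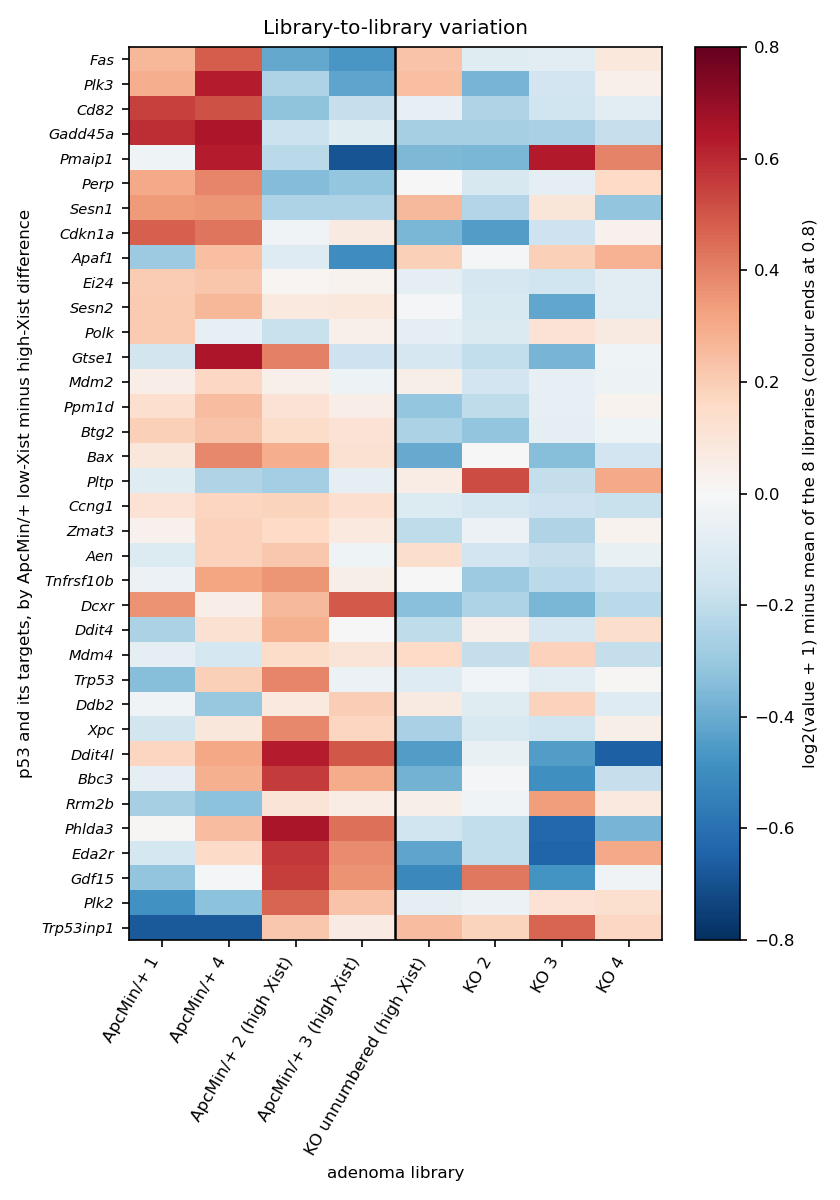
Colour gives each member's log2(value + 1) minus its mean over the 8 libraries, with members ordered by the difference between low-Xist and high-Xist ApcMin/+ libraries and the genotypes parted by a line. Members at the top and bottom split ApcMin/+ replicates 1 and 4 from 2 and 3 in opposite directions. Some members in the middle, such as Ccng1 and, narrowly, Zmat3, set the genotypes apart, and others, such as Polk, Mdm2 and Aen, overlap.

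Beyond the 36 members, genes upstream of p53 lay mostly slightly above 0. Of 20 listed, 19 were in the sheet and tested, 0 passed, 6 lay below 0 (against 59% of all genes tested), and their median was 0.03 on the log2 scale. At an unadjusted p under 0.05, 2 of the 19 were lower and 0 higher, where 11.6% and 7.39% of all genes were, so the lower count lay near the background. The lower pair was Cdkn2a and Rpl11. Cdkn2a (chromosome 4, 89274471 to 89294653) encodes both p19Arf, which blocks Mdm2, and the kinase inhibitor p16Ink4a, and 1 row holds both. It had 140, 357, 289 and 226 in ApcMin/+ and 30, 111, 27 and 124 in the knockout. All knockout values lay below all ApcMin/+ values, a log2 fold change of -2.02 (95% interval -3.31 to -0.73, limma adjusted p = 0.138), larger in size than that of any of the 36 members. It kept this direction in 20 of 20 alternatives, from -2.73 to -1.29, and passed in 0. Cdkn2a lies 44.3 Mb from Sfn on the same chromosome. Rpl11, a ribosomal protein that binds Mdm2 under ribosomal stress, had 3782 to 4853 in ApcMin/+ and 2745 to 3686 in the knockout. Its log2 fold change was -0.38 (95% interval -0.68 to -0.08, limma adjusted p = 0.187), and it lies 2.43 Mb from Sfn.

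Of 20 further p53 targets, 19 were tested and 1 passed, Ephx1. Their median was -0.10 with 16 of 19 below 0 (against 59% of all genes), and at an unadjusted p under 0.05 there were 4 lower and 1 higher (against 11.6% and 7.39%). Ephx1 (chromosome 1, 180976210 to 181020904), the microsomal epoxide hydrolase, had 1533, 1548, 1820 and 1293 in ApcMin/+ and 581, 719, 539 and 815 in the knockout. It fell by 1.23 on the log2 scale (95% interval -1.61 to -0.85, limma adjusted p = 0.0294), with all 4 knockout libraries below all ApcMin/+ libraries. Its log2 fold change stayed between -1.34 and -1.05 in the 20 alternatives. The call held in 11 of them and was lost under median-ratio scaling (limma adjusted p = 0.0521), quantile normalisation (0.0577) and sequencing order as a covariate (0.131). It was lost too in the shared sequencing order alone (0.0924), with array weights (0.631) and with high Xist as a covariate (0.0538, limma adjusted p in each). It was also lost without the unnumbered knockout library (0.0910) and without knockout replicates 2 and 3 (0.0723 and 0.104, limma adjusted). Lif, a cytokine of the IL-6 family, lay on the other side, with 209, 222, 237 and 203 in ApcMin/+ and 385, 404, 262 and 445 in the knockout (log2 fold change 0.75, 95% interval 0.32 to 1.19, limma adjusted p = 0.130).

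Cell cycle genes that are repressed downstream of p21 centred on 0. Of 19 tested, 0 passed in limma, where 0.143% of all genes were lower and 0.188% higher. At an unadjusted limma p under 0.05 there were 0, where 11.6% of all genes were lower and 7.39% higher. Of the 19, 9 lay below 0 (against 59% of all genes tested). The median log2 fold change was 0.02, against -0.07 for all genes tested. The 2 with the smallest p were Bub1, a spindle checkpoint kinase, at 0.36 (95% interval -0.01 to 0.72), and Ect2, a cytokinesis factor, at 0.36 (-0.01 to 0.73). Of the p53 relatives, Trp63 was at 10 or below in all libraries and was not tested, and Trp73 lay between 3 and 30 (log2 fold change 0.32, 95% interval -1.47 to 2.12).

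**Figure D4:**
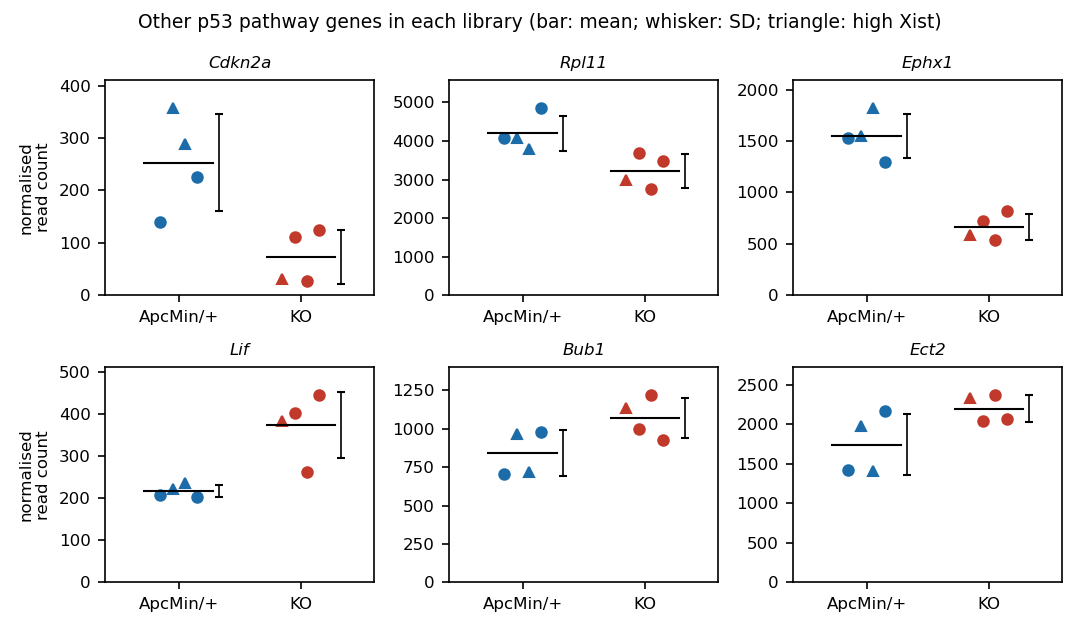
Normalised read counts of 6 p53 pathway genes outside the set, 2 with the smallest p from each list, in each library, with the mean (bar), SD (whisker) and high-Xist libraries as triangles. Cdkn2a, Rpl11 and Ephx1 lie lower and Lif higher in all 4 knockout libraries, and Bub1 and Ect2 overlap.

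The tissue label was checked against markers, and the summed levels of several other cell types' markers lay apart between the genotypes. Epithelial markers were abundant in all libraries (7 of 7 tested, 6 below 0, 0 passed), and so were markers of Wnt-active adenoma cells, with sums of 47769 to 73875 in ApcMin/+ and 49440 to 59323 in the knockout. Of the 7 Wnt-active markers, 6 lay below 0 (against 59% of all genes) and 0 passed. Ascl2 and Sox9 were lower at an unadjusted limma p under 0.05 (log2 fold changes -0.68 and -0.31), and Ascl2 did not overlap. Fibroblast markers summed to 27353 to 38312 in ApcMin/+ and 39361 to 80521 in the knockout, with 6 of 6 above 0. Neutrophil markers summed to 227 to 581 and 708 to 2390, with 3 of 3 above 0. Mast cell markers summed to 7976 to 33383 and 2881 to 5680, and tuft cell markers to 1725 to 2650 and 1158 to 1558, with all 4 and all 3 below 0. In the fibroblast, neutrophil, mast cell and tuft cell lists 0 genes passed at an adjusted p under 0.05 in limma, and 5, 3, 4 and 3 genes had an unadjusted p under 0.05. At that unadjusted p, 11.6% of all genes tested were lower and 7.39% higher. Squamous keratins summed to 359 to 637 in ApcMin/+ and 91 to 149 in the knockout, and of the 2 tested, Krt4 passed (log2 fold change -2.74, limma adjusted p = 0.0426). Of the markers in these 7 lists, Krt5, a squamous keratin, was at 0 in 2 knockout libraries and no other was at 0 in any. Sums of smooth muscle, endothelium, macrophage, T cell, B and plasma cell and goblet cell markers overlapped between the genotypes. Macrophage markers, for example, summed to 2391 to 3220 in ApcMin/+ and 2433 to 3507 in the knockout. The part of these markers' cells in the p53 target values was not tested, and in bulk tissue fewer cells of a type and less RNA per cell cannot be told apart.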

How the data were processed

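The authors deposited 1 sheet of gene-level read counts, rounded after RUVs normalisation and so treated here as a score, per the file headers. Build mm10 is from the submitters' processing notes. The aligner, counter and annotation were not given in the sources used here. Of 48440 rows, 27 with names turned into dates were left out. The filter kept genes reaching 10 in 4 or more libraries. These went to limma 3.58.1 (lmFit, eBayes with trend, R 4.3.3) on log2(value + 1), a scale that understates changes of low genes, with Benjamini-Hochberg adjustment over all 17523. Deviations from genotype means (12052 genes with all values at 100 or more) had singular values from 53.8 to 0.0954. A direction was taken as removed if its value was under 0.1 of the top one, and became a covariate, leaving 5 residual degrees of freedom. The model was run on simulated data into which 1 removed direction was written. It called 78 of 100 changes of 1 on the log2 scale and 97 of 100 changes of 2, with 9 false calls. Changes as small as those of the members were not simulated. Each mouse was a replicate. Positions and exon overlaps are from GENCODE M21 and promoter windows from RefSeq, both on GRCm38, the same assembly as mm10. The members, roles and lists were chosen with earlier results of these data known, so no list was tested as such and no p was adjusted over a list alone. Values in every library are given for members with an unadjusted p under 0.05 or no overlap and for Trp53, Cdkn1a and Mdm2. From each further list the 2 genes with the smallest p are named. Library values of other members were singled out after they were seen. Alternatives changed the pseudocount, filter, scaling, covariates, weights and libraries used.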

Additional observations from a re-analysis of the deposited data

Results flagged for a closer look

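Of 72 tests of a library standing apart (36 members in 2 genotypes), 1 was positive, where chance gives about 1 in 20. Gadd45a in knockout replicate 4 was 797, above the 751, 752 and 757 of the other knockout libraries, whose near equality makes this small gap stand out.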

How the results depend on the processing

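No paired analysis was possible because replicate numbers follow the order of accession and 1 knockout column carries none. Under 20 alternatives, 24 of the 36 members kept their direction and 12 changed sign at least once, in 49 of 720 values, and 7 values newly passed. Members below 0 numbered 25 to 29 and their median lay between -0.29 and -0.17. The count of genes past the threshold, 58 in the main analysis, was 426 when the removed direction was not counted, 18 with sequencing order as a covariate, 16 in the shared order alone, 13 with array weights and 2194 in the low-Xist libraries alone. It was 21 to 346 when 1 library was left out, with 346 without ApcMin/+ replicate 2, 144 without ApcMin/+ replicate 4, 33 without knockout replicate 2, 25 without the unnumbered library or knockout replicate 4 and 21 without knockout replicate 3. Members past the threshold numbered 1 when the removed direction was not counted, 5 in the low-Xist libraries alone and 0 to 1 when 1 library was left out. Members with an unadjusted limma p under 0.05, in both directions together, were 13 in the main analysis. They were 6 with array weights, 7 with sequencing order as a covariate, 8 in the shared order alone and 18 in the low-Xist libraries. With 1 library left out they were 7 to 15. Shares of all genes were not counted for these settings. Members lower without overlap, 11 in all libraries, numbered 19 in the low-Xist libraries (32.7% of all genes), 11 in the shared sequencing order alone (15%), 13 without the unnumbered library (13.5%) and 11 to 14 when 1 library was left out (11.5% to 14.8% of all genes). These counts without libraries were added after seeing the data. Sfn differed by -12.76 in the shared order alone (exact permutation p = 0.0667, the smallest p possible there).

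The cause of the changes of sign was not tested. Not all were of values near 0: in the low-Xist libraries alone Gdf15 went from -0.30 to 0.14 and Trp73 from 0.32 to -0.46. Median-ratio scaling gave Mdm4 0.043, Perp 0.043 and Polk 0.060, and quantile normalisation gave Mdm4 0.042, Perp 0.062 and Polk 0.021. Sequencing order, as a covariate or with the shared order alone, gave Perp 0.012 and Ddb2 -0.011. Array weights gave Mdm4 0.074, Plk2 -0.0035, Perp 0.019, Polk 0.077 and Sesn1 0.059. High Xist as a covariate gave Mdm4 0.039, Pmaip1 -0.014 and Fas -0.025. The low-Xist libraries alone gave Trp53 0.041, Mdm4 0.042, Pmaip1 -0.074, Fas -0.41, Ddit4 0.081, Gdf15 0.14 and Trp73 -0.46. When 1 library was left out, Trp53 ranged from -0.23 to 0.014, Mdm4 from -0.082 to 0.042, Plk2 from -0.093 to 0.23, Plk3 from -0.28 to 0.066 and Pmaip1 from -0.048 to 0.39. Perp ranged from -0.14 to 0.11, Polk from -0.062 to 0.069, Fas from -0.082 to 0.23, Ddb2 from -0.069 to 0.098, Sesn1 from -0.20 to 0.0053, Ddit4 from -0.18 to 0.0032 and Trp73 from -0.15 to 0.90.

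Age and genotype cannot be told apart, depth is unknown, and 5 residual degrees of freedom give wide intervals for small differences. Protein levels of p53 were not measured.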
